A study of Mus musculus with 2 samples.

Results

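The genes described here encode the proteins of the large subunit of the cytosolic ribosome, measured in nuclei of the mouse thalamus after cortical ablation injury (CAI) or sham surgery. They were chosen by symbol: Rpl followed by a number, or Rplp0, Rplp1 or Rplp2, with at least 20 unique molecular identifiers (UMIs) over both libraries. Of 32285 gene rows, 51 matched the symbols and 49 passed the minimum. The genes below the minimum were Rpl10l, with 5 UMIs in the sham library and 3 in the injury library, and Rpl39l, with 4 and 4. Both are paralogs, of Rpl10 and Rpl39. The 49 genes held 135294 UMIs (0.0981% of all) in the sham library and 136825 (0.076%) in the injury library.

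Each group was 1 library of nuclei from 4 female C57BL/6J mice aged 3 months, dissected on day 21 from the thalamus on the operated side. The sham mice had a sham operation, and the injury mice had part of the sensory and motor cortex removed on that side. Neither group carried a genetic alteration. Nuclei of the mice in a pool cannot be told apart, so each group had 1 sample, no difference was tested between mice, and every interval below (95%, exact) covers counting error only.

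A ribosome joins a small subunit, which reads the messenger RNA, to a large subunit, which forms the peptide bond and releases the chain through an exit tunnel. Each large-subunit protein is normally present in a single copy per ribosome, apart from the acidic stalk proteins, and its messenger RNA is translated in the cytoplasm. A nuclear library samples mainly new and not yet exported transcripts of these genes, and can also hold free RNA from outside them. Many of these messengers start with an uninterrupted stretch of C and T, the 5′ terminal oligopyrimidine tract, through which growth signals set their translation.

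Start-site sequences are shown, as examples, for genes at both ends of the order in glutamatergic neurons that had a matched sequence. RefSeq promoter sequences on GRCm38.p6 were matched for 37 of the 49 genes. Those not matched included Rpl3, Rpl7, Rpl8, Rpl17, Rpl21, Rpl23a, Rpl29, Rpl30, Rpl32, Rpl36 and Rplp1. Each line gives 30 bases, the 15 before the annotated start and the 15 from it, with the longest run of C and T in the window in capitals. Rpl28 and Rpl34 were among the 5 genes with the lowest ratio, and Rpl7l1, Rpl4, Rpl5 and Rpl22 among the 5 with the highest.
Rpl28 (chr7:4792950-4792979, plus strand): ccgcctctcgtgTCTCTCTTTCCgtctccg
Rpl34, first start (chr3:130730384-130730413, minus strand): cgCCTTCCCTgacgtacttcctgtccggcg
Rpl34, second start (chr3:130730323-130730352, minus strand): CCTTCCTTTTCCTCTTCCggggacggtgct
Rpl7l1 (chr17:46782642-46782671, minus strand): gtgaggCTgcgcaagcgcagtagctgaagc
Rpl4 (chr9:64173372-64173401, plus strand): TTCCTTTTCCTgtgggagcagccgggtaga
Rpl5 (chr5:107900513-107900542, plus strand): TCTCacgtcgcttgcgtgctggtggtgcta
Rpl22, first start (chr4:152325711-152325740, plus strand): ttcgCCCTgggaaaagcaatagctggccga
Rpl22, second start (chr4:152324421-152324450, plus strand): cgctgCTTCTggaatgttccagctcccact

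A run of at least 6 consecutive C or T in this window, read on the gene's strand, was present in 22 of the 37 genes (59.5%), taking the longest where a gene had several starts. Counted by window, it was present in 23 of the members' 44 windows (52.3%) and in 29.2% of all 32851 RefSeq windows of the same length. In glutamatergic neurons the median log2 ratio was −0.48 for the 22 genes with such a run and −0.37 for the 15 without. A run of C and T in a window is a description of the sequence, and annotated starts can lie some bases from those used in the thalamus.

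The 16390 sham and 21828 injury barcodes held 137850696 and 180106314 UMIs, and 16373 and 21777 nuclei remained after filtering. Nuclei were clustered and named from markers as glutamatergic neurons (11802 sham and 12569 injury nuclei), GABAergic neurons (1973 and 3229), oligodendrocytes (990 and 2303), astrocytes (209 and 512), oligodendrocyte precursors (143 and 218) and microglia (33 and 168). The markers of each class were detected in that class in both libraries. Microglia also held the 5 neuron markers, at 3140 CPM in sham and 1710 CPM in injury (CPM are UMIs per 1000000 UMIs of the class), against 4750 and 4570 CPM in glutamatergic neurons. Oligodendrocyte precursors held the 6 oligodendrocyte markers at 2320 CPM in sham and 2060 CPM in injury, against 3390 and 3490 CPM for their own markers. Their cluster also carried 3 markers of differentiating oligodendrocytes, so this class may not be precursors alone. As a measure of free RNA, markers a class should lack stood at 57.9% of their level in the whole library in sham microglia and at 46.7% in injury microglia, and from 6.25% to 26.9% in the other classes. Barcode sequences shared by the libraries numbered 101. Of the 33 sham microglia, 16 were called doublets. The 6 oligodendrocyte markers, which neurons should lack, summed to 68.4 CPM in glutamatergic neurons of the sham library and to 119 CPM in those of the injury library, and their part in the results was not tested. Clusters 20, 24 and 27 held 940 injury nuclei but 3 sham nuclei, and they entered no class. Cluster 20 carried GABAergic markers. Cluster 24 (0 sham and 284 injury nuclei) carried 3 cortex-like markers and cluster 27 (0 and 218) carried 2 dentate-like markers. Whether the dissected tissue differed between the libraries was not tested.

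The summed share of the 49 genes was lower in the injury library in neurons, oligodendrocytes, astrocytes and oligodendrocyte precursors. In glutamatergic neurons they made up 0.0945% of UMIs (0.0939 to 0.0951) in the sham library and 0.0716% (0.0712 to 0.0721) in the injury library, a log2 ratio of injury over sham of −0.40 (−0.41 to −0.39). In GABAergic neurons the shares were 0.112% and 0.0839%, a log2 ratio of −0.41 (−0.44 to −0.38). The intervals of the 2 neuron classes overlapped.

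In oligodendrocytes, which make myelin, the share was 0.195% for sham and 0.142% for injury, a log2 ratio of −0.46 (−0.52 to −0.40). In astrocytes it was 0.161% and 0.0988%, and the log2 ratio of −0.70 (−0.83 to −0.57) was the lowest of the classes. In oligodendrocyte precursors it was 0.136% and 0.109%, with a log2 ratio of −0.32 (−0.46 to −0.17). The intervals of the sham and injury shares did not overlap in any of these classes. In microglia, the phagocytes of the brain, the shares were 0.179% (0.151 to 0.21) and 0.175% (0.161 to 0.19), and the log2 ratio of −0.03 (−0.29 to 0.24) does not show a difference at a depth of 146 and 601 UMIs. Without called doublets the microglial ratio was 0.46, so its direction depends on these nuclei.

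**Figure D1:**
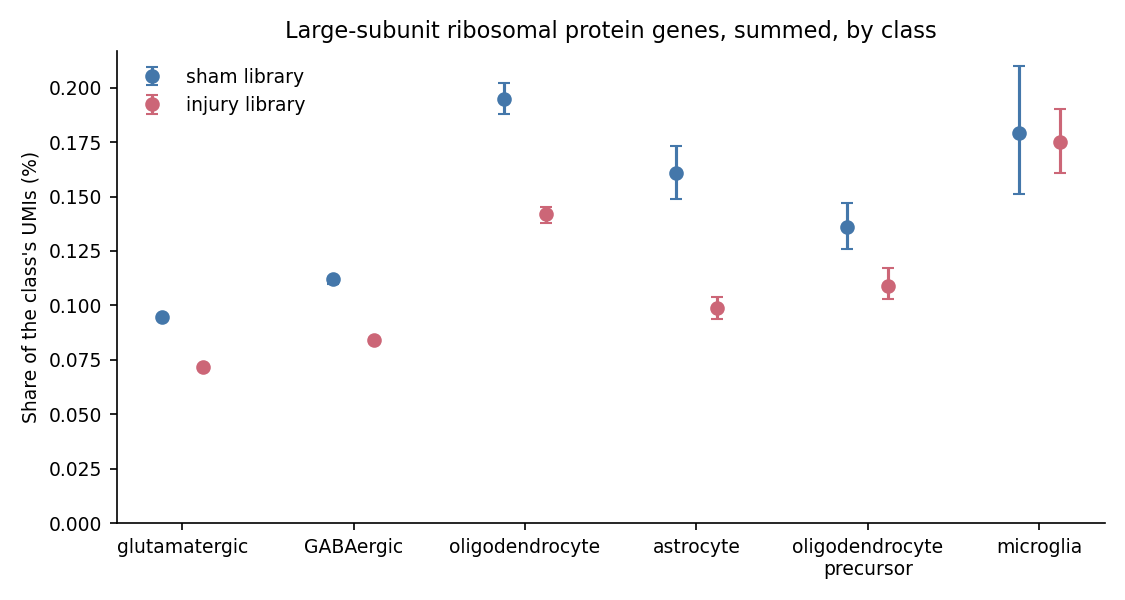
Share of each class's UMIs, in percent, held by the large-subunit genes in the sham library (blue) and the injury library (red), with 95% exact binomial intervals. The injury point lies below the sham point with no overlap in 5 classes, and the intervals overlap in microglia (0.179% and 0.175%).

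The difference was spread over most of the genes rather than carried by a few. A log2 ratio at or below −0.25, the size used in the study's methods, was reached by 40 of 49 genes in glutamatergic neurons, against 13.5% of all 21800 genes with at least 20 UMIs. A ratio at or above 0.25 was reached by 1 member, Rpl3l, against 18.2% of all genes. In GABAergic neurons 40 of 49 genes were at or below −0.25 (14.5% of all genes) and 1, Rpl7l1, at or above 0.25 (20.4%). The median over the members was −0.42 in glutamatergic and −0.46 in GABAergic neurons, where the median over all genes was 0.02 and 0.01. With at least 200 UMIs, where counting error is smaller, the counts were 40 of 48 members against 10.7% of all genes in glutamatergic neurons, and 39 of 47 against 9.92% in GABAergic neurons.

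In oligodendrocytes 48 members passed the minimum of 20 UMIs. Of these, 40 were at or below −0.25 (26.8% of all genes) and 0 at or above 0.25 (23.6%), with a median of −0.46. In astrocytes 46 members passed, with 40 at or below −0.25 (30%), 4 at or above 0.25 (30.1%) and a median of −0.71. These counts rest on a median of 36 UMIs per gene over both libraries, and of the 13 members with at least 50 UMIs, 12 were at or below −0.25, against 25.2% of all genes with as many. Restricted to nuclei with a low mitochondrial share (at or below the median of all nuclei, 0.0174%), 8 members were measured in astrocytes, 5 of them at or below −0.25, and the median was −0.39. The share of all genes at or below −0.25 in those nuclei is not given here, so that count has no background beside it.

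In oligodendrocyte precursors 38 members passed, with 23 at or below −0.25 (25.5%), 6 at or above 0.25 (28.9%) and a median of −0.47. Among the 5 precursor members with at least 50 UMIs, 1 was at or below −0.25 (21.0% of all genes with as many) and the median was 0.29, so the direction of the median in this class depends on genes with few counts. In nuclei with a low mitochondrial share the precursor median was 0.15, over 3 members. In microglia 11 members passed, with 5 at or below −0.25 (31.8%), 4 at or above 0.25 (41.2%) and a median of −0.32, which was 0.14 without called doublets.

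At the tip of the large subunit, the stalk recruits the elongation factors. It is built on Rplp0, which carries the acidic proteins encoded by Rplp1 and Rplp2, and on Rpl12 at its base. Summed over these 4 genes, glutamatergic neurons held 5286 sham and 3954 injury UMIs, a log2 ratio of −0.56 (−0.62 to −0.50). The ratio was −0.59 (−0.73 to −0.45) in GABAergic neurons and −0.37 (−0.61 to −0.12) in oligodendrocytes. It was −1.03 (−1.56 to −0.49) in astrocytes and −0.12 (−0.74 to 0.52) in oligodendrocyte precursors.

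The stalk genes were not equal. Rplp1 (chr9:61913284-61914542, minus strand of GRCm38) had 1619 sham and 1027 injury UMIs in glutamatergic neurons, or 15.2 and 8.72 CPM, the lowest ratio of that class at −0.80 (−0.91 to −0.69). Rpl12 had 16.2 and 10.6 CPM, a ratio of −0.61 (−0.72 to −0.50). Rplp2, the acidic partner of Rplp1, had 10.3 and 7.71 CPM and a ratio of −0.42 (−0.55 to −0.29). Rplp0, the base protein, had 7.93 and 6.57 CPM and a ratio of −0.27 (−0.41 to −0.13). This ratio was −0.43 in nuclei with a low mitochondrial share and −0.04 when thinned. For thinning, nuclei with at least 2000 UMIs were kept and each was reduced at random to 2000. The interval of Rplp1 did not overlap that of Rplp2 or Rplp0. In GABAergic neurons the same genes stood at −0.84, −0.68, −0.32 and −0.29 in the order Rplp1, Rpl12, Rplp2 and Rplp0. The interval of Rplp0 there (−0.63 to 0.06) held 0. Rplp2 in GABAergic neurons rested on 153 and 201 UMIs, and its ratio was 0.05 when nuclei were thinned.

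Rpl5 and Rpl11 encode the proteins that bind the 5S ribosomal RNA. Outside the ribosome the same particle binds Mdm2 and so links ribosome assembly to p53. This pair had the smallest difference of the 4 structural groups in glutamatergic neurons, with 6105 sham and 6044 injury UMIs and a log2 ratio of −0.16 (−0.21 to −0.11). In GABAergic neurons it was −0.15 (−0.26 to −0.03). The pair stood at −0.33 (−0.58 to −0.08) in oligodendrocytes, −0.58 (−1.11 to −0.02) in astrocytes and −0.53 (−1.15 to 0.11) in oligodendrocyte precursors. Rpl5 (chr5:107900502-107909005) had 26.7 and 25.2 CPM in glutamatergic neurons, a ratio of −0.08 (−0.16 to −0.01). In GABAergic neurons Rpl5 had 26.5 and 28.8 CPM, a ratio of 0.12 with an interval (−0.06 to 0.31) that held 0, and of 0.44 when thinned. Rpl11 was lower in both, at −0.22 (−0.30 to −0.15) and −0.33 (−0.48 to −0.18). The intervals of Rpl5 and Rpl11 did not overlap in GABAergic neurons. In oligodendrocytes Rpl5 stood at −0.45 (−0.85 to −0.03), from 80 and 147 UMIs.

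Rpl3, Rpl4, Rpl8 and Rpl10 encode proteins that reach towards the peptidyl transferase centre, where the peptide bond forms. Their summed ratio was −0.27 (−0.32 to −0.23) in glutamatergic and −0.24 (−0.35 to −0.14) in GABAergic neurons. It was −0.22 (−0.43 to −0.01) in oligodendrocytes, −0.78 (−1.23 to −0.32) in astrocytes and −0.62 (−1.11 to −0.13) in oligodendrocyte precursors. Rpl4, whose protein lines the start of the exit tunnel, had 10.3 sham and 10.5 injury CPM in glutamatergic neurons, a ratio of 0.03 (−0.09 to 0.15), which was −0.10 when thinned. Rpl10, a protein that joins the particle late in assembly, had 16.8 and 12.4 CPM, a ratio of −0.43 (−0.53 to −0.33), which was −0.26 when thinned. Rpl3 and Rpl8 lay between them at −0.30 and −0.28. In GABAergic neurons Rpl4, Rpl8 and Rpl10 stood at −0.20, −0.21 and −0.21, and Rpl3 at −0.31 (−0.48 to −0.14). There the intervals of Rpl4 (−0.48 to 0.08) and Rpl10 (−0.44 to 0.03) held 0, and that of Rpl8 (−0.41 to −0.0008) came close to it.

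The 9 genes whose proteins surround the mouth of the exit tunnel were Rpl17, Rpl19, Rpl22, Rpl23a, Rpl26, Rpl31, Rpl35, Rpl38 and Rpl39. In this region the signal recognition particle and chaperones dock on the ribosome. They summed to 16518 sham and 13349 injury UMIs in glutamatergic neurons, a log2 ratio of −0.45 (−0.48 to −0.42). Of the 9, 8 were at or below −0.25, against 13.5% of all genes and 40 of all 49 members. In GABAergic neurons the ratio was −0.53 (−0.60 to −0.45), again with 8 of 9, against 14.5% of all genes and 40 of 49 members. Their sum was also lower in oligodendrocytes, at −0.55 (−0.70 to −0.39), and in astrocytes, at −0.83 (−1.16 to −0.50). In oligodendrocyte precursors it stood at −0.34, with an interval (−0.74 to 0.07) that held 0. In microglia their sum was higher in the injury library, at 1.09 (0.22 to 2.08), from 12 sham and 107 injury UMIs. This value rests on 33 sham nuclei, of which 16 were called doublets. In microglia the intervals of the stalk (−1.37 to 0.67), 5S (−0.90 to 1.71) and peptidyl transferase centre (−1.12 to 0.46) genes held 0. The gene above −0.25 was Rpl22 in both neuron classes, at −0.18 (−0.28 to −0.08) in glutamatergic and −0.01 (−0.25 to 0.24) in GABAergic neurons.

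Within this group Rpl17 stood at −0.61 and −0.71 in glutamatergic and GABAergic neurons, Rpl35 at −0.60 and −0.60, and Rpl26 at −0.55 and −0.76. Rpl31 stood at −0.52 and −0.60, Rpl19 at −0.42 and −0.48, Rpl23a at −0.34 and −0.29, and Rpl38 at −0.26 and −0.40. When thinned, Rpl35 stood at −0.38 and Rpl23a at −0.15 in glutamatergic neurons. Rpl39, which encodes a very small protein inside the tunnel, had the lowest ratio of all members in GABAergic neurons, where 134 sham and 106 injury UMIs gave 9.48 and 4.56 CPM and a ratio of −1.05 (−1.44 to −0.68). In glutamatergic neurons Rpl39 stood at −0.58 (−0.75 to −0.41), so the intervals of the classes overlapped.

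Besides Rplp1, the lowest ratios in glutamatergic neurons were those of Rpl32, Rpl34, Rpl29 and Rpl28, which encode proteins with no bacterial counterpart. Rpl32 (chr6:115805505-115808747) had 1419 sham and 909 injury UMIs, or 13.3 and 7.72 CPM, a ratio of −0.79 (−0.91 to −0.66). Rpl34 (chr3:130726831-130730398) had 16.5 and 9.89 CPM, a ratio of −0.74 (−0.85 to −0.63). Rpl29 had 14.6 and 8.83 CPM, a ratio of −0.73 (−0.84 to −0.61). Rpl28 had 16.7 and 10.8 CPM and a ratio of −0.62 (−0.73 to −0.52). The intervals of the 5 lowest genes overlapped, so their order within the group is not resolved by these counts.

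In GABAergic neurons Rpl32 had 17.3 and 9.13 CPM, a ratio of −0.92 (−1.20 to −0.65), which was −0.37 when thinned. Rpl28 stood at −0.80 and Rpl34 at −0.79, with intervals that reached from −1.05 to −0.55 and from −1.06 to −0.51. Rpl29 stood at −0.58. Rplp1, Rpl32, Rpl34 and Rpl28 were among the 5 lowest in both neuron classes, with Rpl29 the other in glutamatergic and Rpl39 in GABAergic neurons. This order changed with the setting, and most when nuclei were thinned. Thinning kept 11567 of 11802 sham and 12327 of 12569 injury glutamatergic nuclei, but fewer of their UMIs. When thinned, Rpl32 stood at −0.57 in glutamatergic neurons, and the 5 lowest there were Rpl34, Rplp1, Rpl12, Rpl31 and Rpl39. In GABAergic neurons they were then Rpl39, Rpl26, Rpl34, Rpl27 and Rpl28.

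At the upper end, Rpl7l1 (chr17:46773907-46782672) was the gene with an interval above 0 in both neuron classes. It is a relative of Rpl7 found in precursors of the large subunit. In glutamatergic neurons it had 1690 sham and 2094 injury UMIs, or 15.9 and 17.8 CPM, a ratio of 0.17 (0.07 to 0.26), which was 0.27 as a mean over the CPM of single nuclei. In GABAergic neurons it had 19.0 and 22.8 CPM, a ratio of 0.26 (0.05 to 0.48). Rpl7 itself had 10.9 and 8.78 CPM in glutamatergic neurons, a ratio of −0.31 (−0.43 to −0.18), and its interval did not overlap that of Rpl7l1. In GABAergic neurons Rpl7 stood at −0.41 (−0.68 to −0.13). Rpl7l1 overlaps the annotated gene Gm26904, whose reads cannot be told apart from it if counting did not use the strand. Other named genes also overlap an annotated gene, among them Rpl3, Rpl5, Rpl12, Rpl22l1, Rpl28 and Rpl32. The strands of the overlapping genes are not given here.

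Rpl4, Rpl5 and Rpl22, also at the upper end in glutamatergic neurons, are given above. In GABAergic neurons Rpl6 had 59.9 and 57.7 CPM, a ratio of −0.05 (−0.18 to 0.07), or 0.07 when thinned, while in glutamatergic neurons it had 60.5 and 50.5 CPM, a ratio of −0.26 (−0.31 to −0.21). Rpl27a stood at −0.15 (−0.30 to 0.01) in GABAergic neurons.

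Of the remaining paralogs, 1 was apart from its partner in glutamatergic neurons and 1 was too sparse to tell. Rpl22l1, a relative of Rpl22, had 19.7 and 12.8 CPM in glutamatergic neurons, a ratio of −0.62 (−0.72 to −0.52), with no overlap with Rpl22 at −0.18. In GABAergic neurons Rpl22l1 stood at −0.34 (−0.55 to −0.12), and there its interval overlapped that of Rpl22. Rpl3l, the form of Rpl3 typical of heart and skeletal muscle, was at the edge of detection, with 45 and 60 UMIs in glutamatergic neurons and a ratio of 0.27 (−0.31 to 0.86) whose interval overlaps that of Rpl3.

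**Figure D2:**
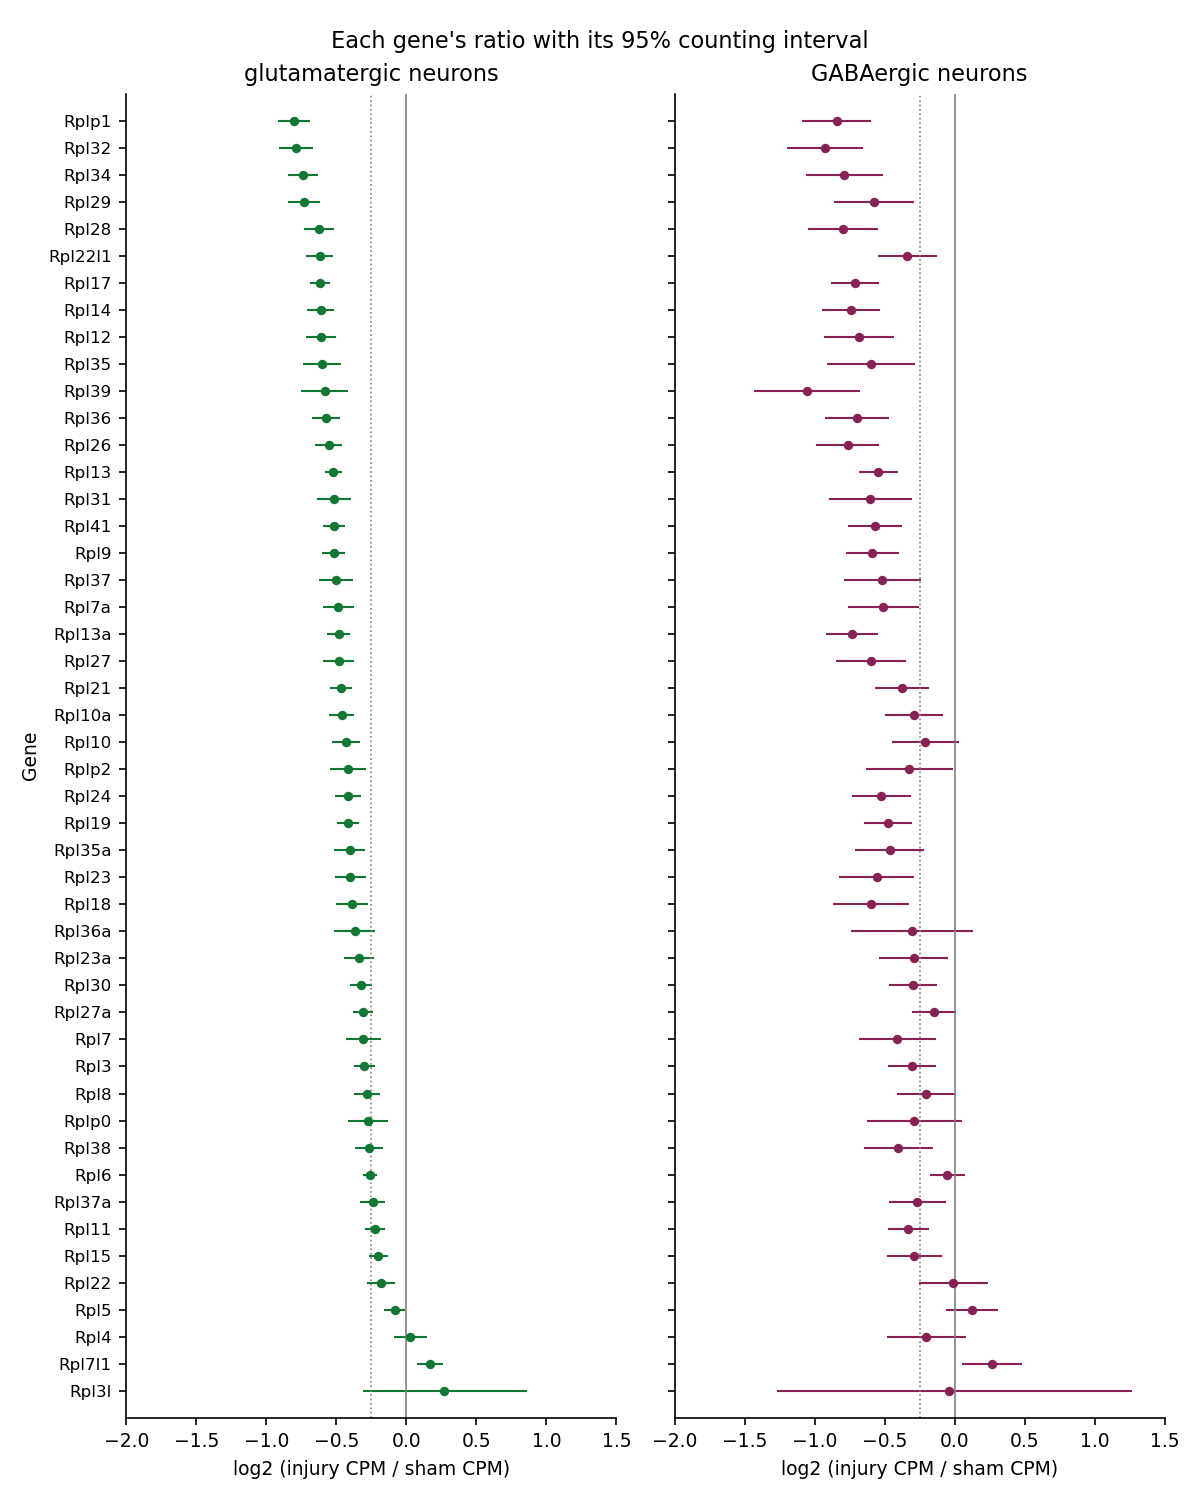
Log2 ratio of injury over sham CPM for 48 of the genes (rows, ordered by the glutamatergic value) in glutamatergic and GABAergic neurons, with 95% counting intervals. The solid line marks 0 and the dotted line −0.25. Rplp1 and Rpl32 lie farthest to the left in glutamatergic neurons (−0.80 and −0.79), and Rpl7l1 lies to the right of 0 in both panels (0.17 and 0.26).

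In oligodendrocytes 19 members had at least 200 UMIs, and 16 of them were at or below −0.25, against 17.6% of all genes with as many UMIs. The lowest were Rpl26, Rpl30, Rpl14, Rpl21 and Rpl17. Rpl26 had 86 sham and 127 injury UMIs, or 50.6 and 29.9 CPM, a ratio of −0.76 (−1.17 to −0.35). Rpl30 had 51.2 and 30.6 CPM, a ratio of −0.74, and Rpl14 had 56.5 and 33.9 CPM, a ratio of −0.74. Rpl21 stood at −0.72 and Rpl17 at −0.71, and the intervals of all 5 overlapped. With a low mitochondrial share Rpl17 stood at −1.17.

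The highest of these oligodendrocyte genes were Rpl3, Rpl19, Rpl8, Rpl11 and Rpl6, from −0.22 to −0.29, none of them above 0. Rpl3 had 63.5 and 54.5 CPM, a ratio of −0.22 (−0.56 to 0.12). With a low mitochondrial share Rpl3 stood at 0.15, Rpl19 at −0.80 and Rpl11 at −0.58 in oligodendrocytes. Rpl6 had 101 and 82.5 CPM, a ratio of −0.29 (−0.56 to −0.02), and its ratio was 0.04 in nuclei thinned to 2000 UMIs. Thinning kept 276 of 990 sham and 793 of 2303 injury oligodendrocytes, those with at least 2000 UMIs. Rpl7l1 had 38 and 92 UMIs in oligodendrocytes, a ratio of −0.05 (−0.61 to 0.54). The intervals of the lowest and the highest genes overlapped, so the oligodendrocyte counts do not separate the ends of the order as the neuron counts do. No member reached 200 UMIs in astrocytes, oligodendrocyte precursors or microglia.

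The glial classes and neurons came from the same pair of libraries, so likeness between classes is not independent and is given as a description. Of 38 members with at least 20 UMIs in all 5 classes other than microglia, 26 were below 0 in every class, against 11.7% of all 7424 genes measured so, and 14 were at or below −0.25 in every class, against 1.16%. A further 11 were below 0 in 4 classes, and 1, Rpl7l1, in fewer.

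Rpl32 stood at −0.79 in glutamatergic neurons, −0.92 in GABAergic neurons, −0.85 in oligodendrocytes, −1.58 in astrocytes and −0.82 in oligodendrocyte precursors. The last, from 15 and 14 UMIs, had an interval (−1.98 to 0.33) that held 0. Rpl28 stood at −0.62, −0.80, −0.46, −1.12 and −0.92 in the same order of classes. Its precursor interval (−2.12 to 0.25), from 15 and 13 UMIs, also held 0. Rpl17 stood at −0.61, −0.71, −0.71, −0.64 and −0.57, with intervals that held 0 in astrocytes (−1.39 to 0.14) and oligodendrocyte precursors (−1.56 to 0.44). Each of these genes was below −0.25 in all 5 classes. Rplp1 ranged from −1.996 (−3.04 to −0.97) in astrocytes, with 20 and 16 UMIs, to −0.01 (−1.17 to 1.22) in oligodendrocyte precursors, with 11 and 18 UMIs, and these intervals overlapped. Rpl7l1 stood at 0.17, 0.26, −0.05, 0.27 and 0.48, close to or above 0 in each class. Its intervals held 0 in oligodendrocytes (−0.61 to 0.54), astrocytes (−0.96 to 1.72) and oligodendrocyte precursors (−0.64 to 1.72). Rpl22 stood at −0.18 in glutamatergic neurons, −0.01 in GABAergic neurons and −0.75 (−1.36 to −0.13) in oligodendrocytes, where it had 39 and 58 UMIs.

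**Figure D3:**
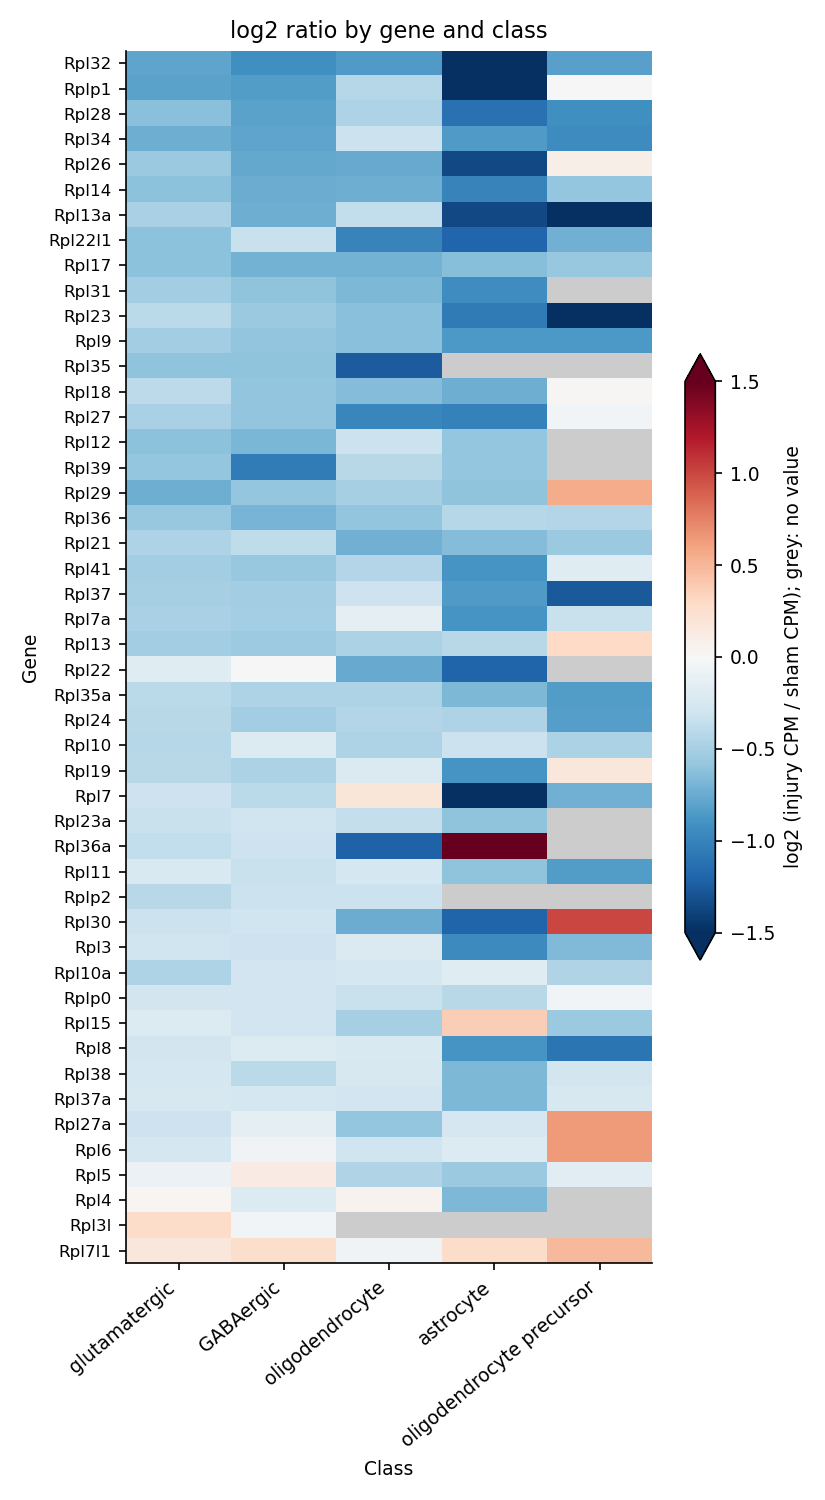
Log2 ratio of injury over sham CPM for 48 of the genes (rows, ordered by the median of the classes) in each class (columns), blue where lower and red where higher in the injury library, with colours capped at −1.5 and 1.5 and grey where a gene had under 20 UMIs. Rows from Rpl32 (−0.79 to −1.58 over the classes) to Rpl9 are mostly blue, and the bottom row, Rpl7l1, reaches from −0.05 to 0.48.

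Across neuron types the summed ratio was below 0 in each of 18 clusters with 50 or more sham and 50 or more injury nuclei, not counting the unnamed and doublet clusters. None of their intervals reached 0, and their median was −0.44. Of the clusters of that size left out, the unnamed cluster 17 stood at −1.23 (−1.36 to −1.09) and the doublet clusters 12, 18 and 25 at −0.36, −0.32 and −0.24, with intervals below 0. Clusters are named by number and their 2 leading genes. The lowest were cluster 11 (Ppp1r3a and Adamts9), at −0.58 (−0.64 to −0.53), cluster 13 (Egflam and Adgrg6), at −0.58, and cluster 15 (Npsr1 and Col27a1), at −0.58. In cluster 11 the members held 0.086% of sham UMIs and 0.0574% of injury UMIs.

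The cluster nearest to 0 was cluster 7 (Glis3 and Fbln1), at −0.25 (−0.30 to −0.20), with shares of 0.0901% and 0.0757%. Its interval did not overlap that of cluster 11. The GABAergic clusters were apart as well: cluster 10 (Six3 and Colq) stood at −0.52 (−0.58 to −0.46) and cluster 1 (Gata3 and Pax3) at −0.37 (−0.40 to −0.33). The clusters of glutamatergic neurons thus covered a range that held both GABAergic values. Cluster 21 (Gm36903 and Gm13816), at −0.33, is shown but was kept out of the glutamatergic class, because markers of another class led it.

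**Figure D4:**
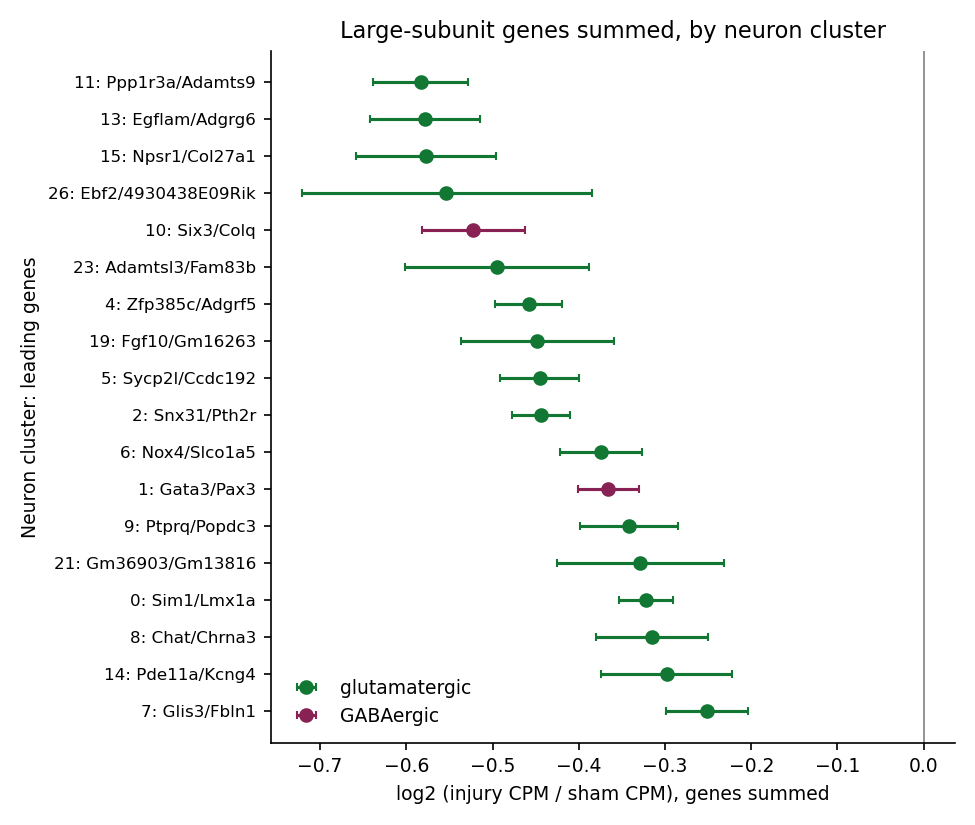
Summed log2 ratio of injury over sham CPM for the large-subunit genes in each neuron cluster, with 95% counting intervals, glutamatergic in green and GABAergic in purple. Clusters are numbered and carry their 2 leading genes. All 18 lie left of 0, from −0.58 in cluster 11 to −0.25 in cluster 7.

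Single genes varied across clusters to differing degrees. Rplp1 had at least 50 UMIs in 15 clusters and was at or below −0.25 in 15 of them, from −1.38 in cluster 13 to −0.60 (−1.44 to 0.19) in cluster 15. Rpl34 (15 clusters, from −1.16 to −0.46), Rpl29 (16 clusters, from −1.31 to −0.49) and Rpl36 (16 clusters, from −1.25 to −0.27) were also at or below −0.25 in each cluster measured. So was Rpl21 (17 clusters, from −0.66 to −0.28), which ranked 22 of 49 from the lowest in glutamatergic neurons. Rpl32 was so in 14 of 15 clusters. At the upper end of these ranges the intervals of Rplp1, Rpl34 (−0.96 to 0.06, cluster 8) and Rpl36 (−0.82 to 0.27, cluster 14) held 0. Rpl21, Rpl29, Rpl34 and Rpl36 were named here after their values were seen. The share of all genes at or below −0.25 in single clusters is not given here, so these counts have no background beside them. Rpl7l1 was below 0 in 3 of 17 clusters, with a median of 0.21, and ranged from −0.25 (−0.65 to 0.15) in cluster 11 to 0.57 (0.07 to 1.09) in cluster 10. Rpl5 was below 0 in 11 of 17 clusters and Rpl4 in 7 of 14, both with medians near 0, −0.14 and −0.03.

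Other genes of translation and of the ribosome were compared as whole lists. The 33 small-subunit genes, which encode the partner subunit, had summed ratios of −0.44 in glutamatergic neurons, −0.44 in GABAergic neurons, −0.49 in oligodendrocytes, −0.64 in astrocytes, −0.27 in oligodendrocyte precursors and −0.12 in microglia. In glutamatergic neurons 30 of the 33 were at or below −0.25 (13.5% of all genes) and 0 at or above 0.25 (18.2%). In that class the small-subunit sum (−0.45 to −0.42) lay slightly below the large-subunit sum (−0.41 to −0.39), with no overlap of the intervals, and in the other classes the intervals overlapped. The medians had the opposite order, −0.40 for the small-subunit and −0.42 for the large-subunit genes in glutamatergic neurons, and −0.38 and −0.46 in GABAergic neurons. Fau, itself on that list, encodes a ribosomal protein made as a fusion to a ubiquitin-like protein and stood at −0.49 (−0.58 to −0.39) in glutamatergic neurons.

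The 37 translation factor genes, which include initiation and elongation factors, had a summed ratio of −0.08 (−0.09 to −0.06) in glutamatergic and −0.05 (−0.08 to −0.02) in GABAergic neurons, with 7 and 5 genes at or below −0.25 of the 37, where 13.5% and 14.5% of all genes were. In oligodendrocytes the ratio was −0.22, in astrocytes −0.10, in oligodendrocyte precursors −0.03 and in microglia 0.20. The 28 ribosome biogenesis genes, which encode nucleolar assembly factors and parts of RNA polymerase I, had a summed ratio of 0.03 (0.02 to 0.05) in glutamatergic and 0.03 (−0.00 to 0.07) in GABAergic neurons, and 1 and 2 of them were at or below −0.25, against 13.5% and 14.5% of all genes. In the glial classes biogenesis genes stood at −0.04 in oligodendrocytes, 0.01 in astrocytes, 0.13 in oligodendrocyte precursors and −0.22 in microglia. In neurons the genes of the ribosome itself were thus lower by more than the genes that build it or work on it. Neither these lists nor the respiratory chain list below were matched for gene length. Short genes outside the ribosome were also lower, as given below, and the part of gene length in these differences was not tested.

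A list outside translation was also lower. The nuclear-encoded respiratory chain genes had summed ratios of −0.19 (−0.20 to −0.18) in glutamatergic neurons, −0.20 in GABAergic neurons, −0.37 in oligodendrocytes, −0.43 in astrocytes, −0.08 in oligodendrocyte precursors and −0.30 in microglia, and 45 of the 79 measured in glutamatergic neurons were at or below −0.25, against 13.5% of all genes. The 13 mitochondrially encoded genes stood at 0.06 in glutamatergic neurons, 0.10 in GABAergic neurons, 0.52 in oligodendrocytes, −0.52 in astrocytes, 0.16 in oligodendrocyte precursors and 0.88 in microglia. The 7 nuclear-retained RNAs stood at −0.0038 in glutamatergic neurons, 0.11 in GABAergic neurons, −0.25 in oligodendrocytes, −0.06 in astrocytes, 0.07 in oligodendrocyte precursors and −0.05 in microglia. In oligodendrocytes the median over these 7 genes was 0.17, opposite in sign to their sum, with 3 genes at or above 0.25 and 1 at or below −0.25. The median mitochondrial share of a nucleus was 0.015% in sham and 0.0156% in injury glutamatergic neurons, and 0.0602% and 0.1003% in oligodendrocytes. In astrocytes it was 0.0589% and 0.0382%. The part of these values in the result was not tested.

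Gene length moved with the ratio in glutamatergic neurons. Most members are short genes, and across the 48 with at least 200 UMIs in glutamatergic neurons Spearman's rho between the log2 ratio and gene length was 0.44, given as a description across genes that share both libraries. It was 0.24 over 47 members in GABAergic neurons and 0.07 over 19 in oligodendrocytes. In glutamatergic neurons the 31 members under 4000 bases had a summed ratio of −0.46 (−0.47 to −0.44) and the 17 longer ones −0.31 (−0.33 to −0.29). In GABAergic neurons the values were −0.48 and −0.30. Rpl7l1, Rpl5, Rpl22 and Rpl4, at the upper end, have gene lengths of 8766, 8504, 8330 and 5292 bases. Rplp1, at the lower end, has 1259 bases. Rpl11 (25164 bases) and Rpl3 (14078 bases) are the longest and stood at −0.22 and −0.30.

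Short genes outside the ribosome were also lower in the injury library. Among protein-coding genes under 4000 bases with at least 200 UMIs, leaving out ribosomal protein genes, the median ratio in glutamatergic neurons was −0.23 over 720 genes, and 47.2% were at or below −0.25. In GABAergic neurons it was −0.23 over 327 genes, with 45.9%, and in oligodendrocytes −0.29 over 51 genes, with 52.9%. Protein-coding genes of 4000 bases or more, without members, had a median of 0.01 in glutamatergic neurons, −0.01 in GABAergic neurons and −0.01 in oligodendrocytes, with 7.47%, 8.52% and 16.3% at or below −0.25. The median of the 31 short members, −0.48, was below that of the other short genes, and the part of gene length in the result was not tested. The boundary of 4000 bases was chosen after the values were seen.

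**Figure D5:**
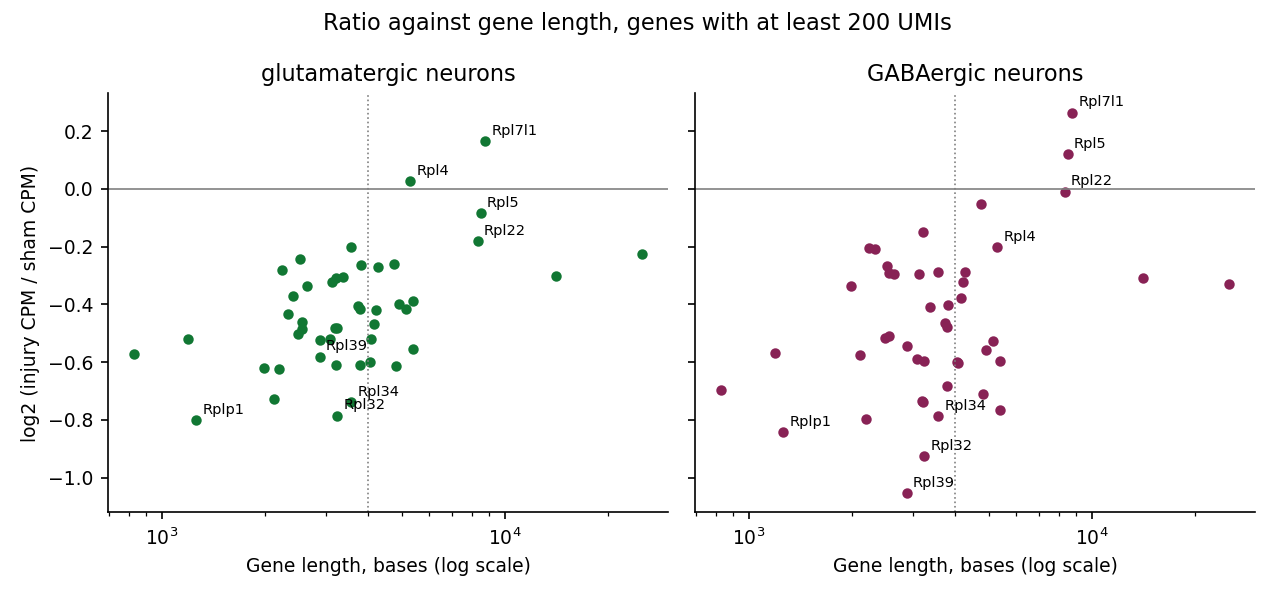
Log2 ratio of injury over sham CPM against gene length in bases (log axis) for members with at least 200 UMIs in glutamatergic (47 genes shown) and GABAergic (46 genes shown) neurons. The dotted line marks 4000 bases and the solid line a ratio of 0. Rpl7l1 (0.17 and 0.26) is the highest point in each panel, and the short genes to the left of the dotted line all lie below 0.

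Other features of the genes were set against the ratio in the same way. Exonic length had a Spearman's rho of 0.36 in glutamatergic neurons, 0.39 in GABAergic neurons, where it exceeded that of gene length, and −0.14 in oligodendrocytes. Intron length had 0.37, 0.14 and 0.36 in the same order, and the largest number of exons in a transcript 0.33, 0.28 and 0.26. The number of pseudogenes named after the gene had −0.19, −0.18 and −0.52, the last over 19 members. In glutamatergic neurons the 20 members with a small nucleolar RNA gene inside them had a summed ratio of −0.39 and the 28 without −0.41. In GABAergic neurons the 20 with such a gene stood at −0.37 (−0.41 to −0.33) and the 27 without at −0.45 (−0.49 to −0.41), with overlapping intervals and medians of −0.36 and −0.53. In glutamatergic neurons the 17 members that overlap another annotated gene stood at −0.39 and the 31 that do not at −0.41. The GABAergic order was the opposite, −0.42 for the 17 that overlap and −0.41 for the 30 that do not. Those 2 intervals overlapped, and the medians were −0.53 and −0.40. In oligodendrocytes the 7 that overlap another gene stood at −0.38 (−0.51 to −0.24) and the 12 that do not at −0.52 (−0.62 to −0.41), with overlapping intervals. The sham level in CPM, which is not corrected for length, had a Spearman's rho of 0.04 with the ratio across the 48 genes. Many of these genes have processed pseudogenes of near-identical sequence, and how reads shared with such copies were counted is not given in the sources used here.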

How the data were processed

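Frozen thalamus was homogenised, and nuclei from the 4 mice of a group were pooled, stained with propidium iodide, sorted and made into 10x 3′ libraries. The authors deposited 1 table of raw UMI counts per library, with no normalization, made with Cell Ranger 6.0.2 on GRCm38 (mm10) per the submitters' processing notes. The annotation release and the use of introns and strand are not given in the sources used here. Gene names and coordinates came from GENCODE M21.

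Nuclei with over 2% mitochondrial UMIs or over 7500 genes were removed. Doublets were called with Scrublet (scanpy 1.11.5; 2179 sham and 3871 injury nuclei) and kept, except that clusters with over 50% of them were set apart (758 and 1280 nuclei). The libraries were integrated and clustered with Seurat 5.3.0 (R 4.3.3) on 2000 variable genes without those of the tested lists, with 30 components and a resolution of 0.5. Clusters were named from markers, so names stand for a likeness to that class and were rebuilt here. An unnamed low-UMI cluster (265 and 362 nuclei), cluster 21 (197 and 196) and clusters with under 50 nuclei in a library (3 and 940) entered no class. The naming thresholds were set after the data were seen.

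UMIs were summed over the nuclei of a class and divided by the class total (CPM). Single ratios had no prior, and medians a prior of 0.5 UMI. Intervals are Clopper-Pearson at 95%. With 1 library per group no test was made. In each class with genes of at least 200 UMIs, the 5 lowest and 5 highest were named, plus the structural groups and paralogs whatever their values. Rpl21, Rpl29, Rpl34 and Rpl36 across clusters, and Rpl36a, were named after their values were seen. Some named items are not reported here. The members and lists were chosen with earlier results of these data known. Ratios were checked on simulated counts. Alternatives used TMM (edgeR 4.0.16) and median-of-ratios (DESeq2 1.42.0) factors and other sets of nuclei and genes.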

Additional observations from a re-analysis of the deposited data

Results flagged for a closer look

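Single genes were looked at where the interval lay above 0 in a class and below 0 in another. Rpl6 in oligodendrocyte precursors had 30 sham and 77 injury UMIs, or 57.3 and 89.3 CPM, a log2 ratio of 0.64 (0.02 to 1.30), against −0.26 (−0.31 to −0.21) in glutamatergic neurons and −0.29 (−0.56 to −0.02) in oligodendrocytes. Rpl36a in astrocytes had 1 sham and 21 injury UMIs, a log2 ratio of 2.72 (0.08 to 8.09), against −0.37 (−0.52 to −0.22) in glutamatergic neurons and −1.21 (−2.07 to −0.34) in oligodendrocytes. Neither difference between classes was tested, and both lower bounds lie close to 0 among many intervals computed.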

How the results depend on the processing

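No paired analysis was possible because only 1 library represented each group. In glutamatergic neurons the summed ratio (−0.40) was −0.42 with TMM factors, −0.42 with median-of-ratios factors, −0.38 in nuclei thinned to 2000 UMIs, −0.44 in nuclei with a low mitochondrial share and −0.43 as the mean over clusters. The median (−0.42) was −0.43 with TMM and −0.43 with median-of-ratios factors (−0.435 and −0.434), −0.44 without called doublets, −0.39 thinned, −0.51 with a low mitochondrial share and −0.44 with free RNA subtracted. In GABAergic neurons the summed ratio (−0.41) was −0.38 thinned and −0.44 as the mean over clusters, and the median (−0.46) was −0.43 without integration and −0.36 thinned. In oligodendrocytes the median (−0.46) was −0.57 with a low mitochondrial share, and 16 members were at or below −0.25 where 200 UMIs were required, since 19 had as many. In astrocytes a low mitochondrial share gave a summed ratio of −0.52 (from −0.70), a median of −0.39 (from −0.71) and 5 of 8 members at or below −0.25 (from 40 of 46), and the count was 12 of 13 thinned and 12 of 13 with at least 50 UMIs. In oligodendrocyte precursors the median (−0.47) was −0.32 without called doublets, −0.11 thinned, 0.15 with a low mitochondrial share and 0.29 with at least 50 UMIs. The count (23 of 38 members measured) was 3 of 9 thinned, 1 of 3 with a low mitochondrial share and 1 of 5 with at least 50 UMIs, so fewer members were measured in each. In microglia the summed ratio (−0.03) was 0.46 without called doublets, −0.33 without integration and 0.46 thinned. The microglial median (−0.32) was 0.14 without called doublets and −0.79 with free RNA subtracted. The microglial count (5 of 11 members measured) was 1 of 3 without called doublets and 20 of 49 with at least 1 UMI. For these precursor and microglial counts the share of all genes is not given here, apart from 21.0% for precursor genes with at least 50 UMIs. Of single genes, Rplp2 in GABAergic neurons was 0.046 and Rpl6 in oligodendrocytes 0.037 when thinned. A further 24 of the single-gene values left their counting interval, and 14 of these moved by over 1.5 times or changed sign, each given beside its gene above: 8 by thinning, 5 with a low mitochondrial share and 1 as a mean over nuclei. The cause of these shifts was not tested. The other 161 class values moved by less than the counting error of the sum, or by under 1.5 times for counts. Over the alternatives the summed ratio stayed between −0.44 and −0.38 in glutamatergic and GABAergic neurons, −0.51 and −0.42 in oligodendrocytes, −0.77 and −0.52 in astrocytes and −0.44 and −0.28 in oligodendrocyte precursors. The requirement of 200 UMIs and a run without the largest glutamatergic cluster were chosen after seeing the data. Differences between mice cannot be judged at 1 library per group.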
